A study of Mus musculus with 2 samples.

Results

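The replication-dependent histone genes supply the histones that package newly copied DNA. All genes of the table with a name of the Hist1 to Hist4 clusters were taken, and those with at least 100 counts over the barcodes kept were described, which gave 66 of 68 genes, out of 27635 genes in the table. The choice used the total count of each gene, so that total is a description and supports nothing. At the edge of the rule, Hist1h2bf (268 counts), Hist3h2a (241) and Hist2h2ab (135) lay just inside, and Hist3h2bb-ps (49) and Hist1h2aa (5) lay outside.

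The cells came from subcutaneous tumours of B16F10, a transplantable mouse melanoma line, at day 14 after transfer. CD3e-bearing cells were enriched by magnetic positive selection, and wild-type (WT) cells and cells labelled Nr4a KO, which the series title gives as a deletion of Nr4a1/2, were marked with hashtag antibodies and pooled. About 20000 cells entered 1 BD Rhapsody capture, in which beads in microwells catch polyadenylated RNA, and cDNA was amplified by TAS-Seq. The labels do not tie any of the 6 hashtags to a genotype and name neither the promoter that drives the deletion nor the number or age of the animals, so WT and Nr4a KO cells were not compared and every value below is from both genotypes together.

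Histone mRNAs of this kind are made while DNA is replicated and are degraded when replication ends. Most of them end in a conserved stem-loop instead of a poly(A) tail: the stem-loop binding protein SLBP holds that end, and NPAT drives transcription of the clusters in S phase. Some of these genes also give polyadenylated transcripts, and a library that catches poly(A) RNA can see a stem-loop transcript only where it carries added or internal A-rich sequence, so the counts below are of the RNA that these beads caught and not of all histone mRNA. Replacement histones such as H3f3b, in contrast, are made throughout the cell cycle from ordinary polyadenylated mRNAs.

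Barcodes needed at least 500 genes and at most 25% mitochondrial counts, which left 11318 of 12016, with 4142 to 892142 counts each (median 26436). Clusters were built without any Hist gene and named from marker genes, and CD8 and Foxp3 cells were gated within T cell-like clusters. A cell was called cycling when Mki67, a nuclear protein of dividing cells, and Top2a, the topoisomerase of replication and mitosis, each had 5 or more counts, and non-cycling when both were below 5. This gave 868 cycling and 2575 non-cycling CD8 cells, 151 and 392 Foxp3 cells, 300 and 980 macrophage-like cells, and 321 and 544 melanoma-like cells. The enrichment label is CD3e, yet macrophage-like and melanoma-like cells passed with it, and their own markers were high: the 10 macrophage markers summed to 7460 and 12027 counts per 1000000 counts (CPM) in the 2 macrophage-like groups, and the 8 melanoma markers to 35544.5 and 38336 CPM in the 2 melanoma-like groups. T cell RNA was not spread evenly. In cycling macrophage-like barcodes, 90.3% held 2 or more of the 8 T cell markers at 5 counts, against 52.9% of non-cycling ones, 11.8% of cycling melanoma-like barcodes and 8.64% of non-cycling ones, so macrophage-like values below hold T cell RNA unless they are said to be without such barcodes, and the totals, families, member counts and main genes are given both ways. Cycling cells were also deeper, with medians of 67666.5 against 21370 counts in CD8 cells and 132005 against 53232.5 in macrophage-like cells.

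The 66 genes held 517699 of 609154889 counts. By family they were 5 H1 linker histone genes (4.56% of the histone counts), 18 H2A (67.5%), 18 H2B (18.4%), 12 H3 (4.41%) and 13 H4 genes (5.13%). By name, 53 are Hist1 genes on chromosome 13, which gave 93.4% of the counts. Another 10 are Hist2 genes on chromosome 3, 2 are Hist3 genes on chromosome 11 and 1 is a Hist4 gene on chromosome 6. Of the Hist1 genes, Hist1h2al (chr13:51202727-51203065) lies apart from the others. The counts were concentrated: Hist1h2ao alone gave 18.7%, the 4 highest genes 55.6%, and the 10 highest 73.0%. These are shares of counts near transcript ends, not divided by length, so they do not rank the genes by number of transcripts.

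The annotated 3′ ends are shown because they bear on what a poly(A) library can catch. For each gene the coding transcript with the most bases after the stop codon was read from GENCODE M21 (GRCm38). The 16-base motif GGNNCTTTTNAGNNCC of the histone stem-loop, searched on the transcript strand, was found in 42 of the 66 genes, 11 had bases after the stop codon but no match, 12 annotations ended at the stop codon, and Hist1h2al has no coding transcript. The lines give the matched stem-loops of 5 genes, with the loop in capitals.
Hist1h2ao: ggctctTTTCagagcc
Hist2h2aa1: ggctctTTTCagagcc
Hist1h1e: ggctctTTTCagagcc
Hist1h3c: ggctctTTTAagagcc
Hist1h4i: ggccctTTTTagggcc
The first form was the most frequent, in 25 of the 42 genes. In 18 genes the bases after the stop codon also held AATAAA, the hexamer that directs polyadenylation. Hist1h2bc, with 742 bases after its stop codon and no stem-loop match, held 1, and Hist1h2ac, its neighbour, held 3 beyond a stem-loop. Their last copies are shown with the hexamer in capitals.
Hist1h2bc: tgatgtatatatAATAAAtgtcatgtaaag
Hist1h2ac: gatgaaaaacagAATAAAgaaattaactaa

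The upstream regions of the genes that led their families are shown for the elements they share. Promoters from 250 bases before to 50 after the annotated start came from RefSeq (GRCm38.p6), where 60 of the 66 genes matched an entry. CCAAT, searched on both strands, lay in 85% of the 60 promoters against 37.4% of 32851 promoters of all genes. It was in 100% of those of H1, H2A, H2B and H3 genes and in 25% of those of H4 genes. TATAAA on the gene's strand lay in 48.3% against 8.32%. ATTTGCAT, the octamer, on both strands, lay in 35.3% of H2A and 37.5% of H2B promoters, in 0% of the other families and in 1.74% of all promoters. Some neighbouring H2A and H2B genes start close together, so their windows overlap and the same site can be counted for both families. Capitals mark CCAAT on either strand and TATAAA.
Hist1h2ao (chr13:21810117-21810416, plus strand): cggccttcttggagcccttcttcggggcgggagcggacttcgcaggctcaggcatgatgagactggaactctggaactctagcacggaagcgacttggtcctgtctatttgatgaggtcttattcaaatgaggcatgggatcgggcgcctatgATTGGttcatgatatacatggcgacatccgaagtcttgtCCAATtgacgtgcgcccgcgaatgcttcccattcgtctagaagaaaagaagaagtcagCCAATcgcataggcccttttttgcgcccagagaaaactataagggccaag
Hist1h1e (chr13:23622509-23622808, minus strand): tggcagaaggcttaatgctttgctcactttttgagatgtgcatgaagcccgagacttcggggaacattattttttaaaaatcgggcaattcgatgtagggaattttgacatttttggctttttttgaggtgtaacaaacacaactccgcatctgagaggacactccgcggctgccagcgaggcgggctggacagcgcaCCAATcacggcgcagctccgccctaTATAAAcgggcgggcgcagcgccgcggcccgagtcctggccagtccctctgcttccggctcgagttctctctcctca
Hist1h4i (chr13:22041313-22041612, minus strand): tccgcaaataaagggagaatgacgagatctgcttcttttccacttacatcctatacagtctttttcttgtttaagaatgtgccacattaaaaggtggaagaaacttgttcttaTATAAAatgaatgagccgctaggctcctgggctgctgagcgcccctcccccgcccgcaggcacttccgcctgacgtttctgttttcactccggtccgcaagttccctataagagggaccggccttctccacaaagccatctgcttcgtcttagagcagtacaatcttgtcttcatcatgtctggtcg
Hist2h2aa1 (chr3:96245247-96245546, plus strand): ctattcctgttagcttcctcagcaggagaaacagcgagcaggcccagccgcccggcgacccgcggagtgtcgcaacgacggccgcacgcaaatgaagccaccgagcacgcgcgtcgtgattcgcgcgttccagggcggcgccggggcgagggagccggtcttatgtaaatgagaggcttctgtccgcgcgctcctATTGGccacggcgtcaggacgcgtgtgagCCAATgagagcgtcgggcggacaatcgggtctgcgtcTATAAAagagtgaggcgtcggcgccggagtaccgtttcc
Hist1h2ao held CCAAT 3 times and no TATAAA, Hist1h1e held both, and Hist1h4i held TATAAA but no CCAAT. Hist2h2aa1, which behaved unlike Hist1h2ao in the cells below, held both. Hist1h2bc had no entry in the RefSeq table.

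Summed over the 66 genes, histone RNA was far higher in cycling than in non-cycling T cells and nearly equal in cycling and non-cycling melanoma-like cells. In CD8 cells it was 2669 CPM (95% Poisson interval 2657 to 2682) in cycling and 205 CPM (202 to 209) in non-cycling cells, a 13.01-fold difference. In cells with Foxp3, the regulatory T cell factor, it was 3389.5 (3355 to 3424) and 180.0 CPM (171 to 189), 18.8-fold. In macrophage-like cells it was 1283 (1272 to 1293) and 178 CPM (175 to 182), 7.20-fold. In melanoma-like cells it was 619.6 (614 to 625.2) and 550.2 CPM (545 to 555), 1.13-fold. There was 1 capture and cells are not replicates, so no test was made, and the intervals cover counting error only: the counts behave as reads, several of which can come from 1 molecule.

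The same contrast held within the cells. The median cycling CD8 cell had 2751 CPM of histone RNA and the median non-cycling CD8 cell 0, and 81.8% of cycling CD8 cells lay above the 90th percentile of non-cycling ones (626 CPM). In Foxp3 cells that share was 85.4%, in macrophage-like cells 65.3% and in melanoma-like cells 13.7%. Cycling cells were not uniform: their 10th percentile was 275 CPM and their 90th 5606 in CD8 cells. At least 1 member at 5 or more counts was seen in 94.2% of cycling and 19.2% of non-cycling CD8 cells (exact binomial intervals 92.5% to 95.7% and 17.7% to 20.8%). With each cell thinned to 10000 counts and a member scored at 1 count, the shares were 95.7% and 38.4% in CD8 cells, 97.3% and 35.1% in Foxp3 cells, 47.7% of non-cycling and 270 of 300 cycling macrophage-like cells and 91.9% and 88.1% in melanoma-like cells. Thinning left out 4 cycling and 238 non-cycling CD8 cells that were shallower. Neutrophil-like cells, which have left the cell cycle, gave 46.4% of 56 thinned cells (33.0% to 60.3%), and there Hist2h2aa1 (32.1% of cells) and Hist2h2aa2 (30.4%) led. Hist1h2ao was found in 5.36% of the thinned neutrophil-like cells, against 10.9% of non-cycling CD8 and 42 of 350 non-cycling Foxp3 cells.

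**Figure D1:**
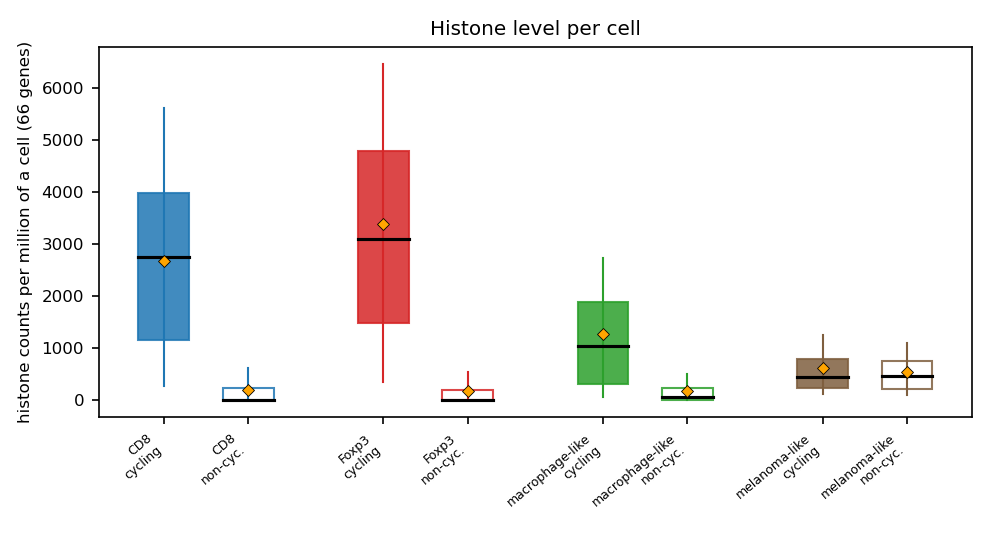
CPM of each cell over the 66 genes, by class and cycling state. Boxes span the middle 50% of cells with the median as a black line, whiskers run from the 10th to the 90th percentile, and diamonds give the value of the summed counts; cycling T cells stand above non-cycling ones, while both melanoma-like groups have medians near 450 to 463.

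Cells that passed the gate for only 1 of Mki67 and Top2a lay between these groups in T cells. CD8 cells with no count of either gene had 190.0 CPM of histone RNA (2181 cells) and those with 1 to 4 counts had 266 (394 cells). Cells with Mki67 alone at 5 counts had 531 (258 cells), with Top2a alone 766, and with both 2669. In melanoma-like cells the total was 548 CPM at no count of either gene, 816 with Mki67 alone, 444 with Top2a alone and 619.6 with both. Most of it was Hist1h2bc, and without that gene the values were 231 CPM at no count, 224 at 1 to 4 counts, 305.9 and 200.01 with 1 gene alone and 442 with both.

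**Figure D2:**
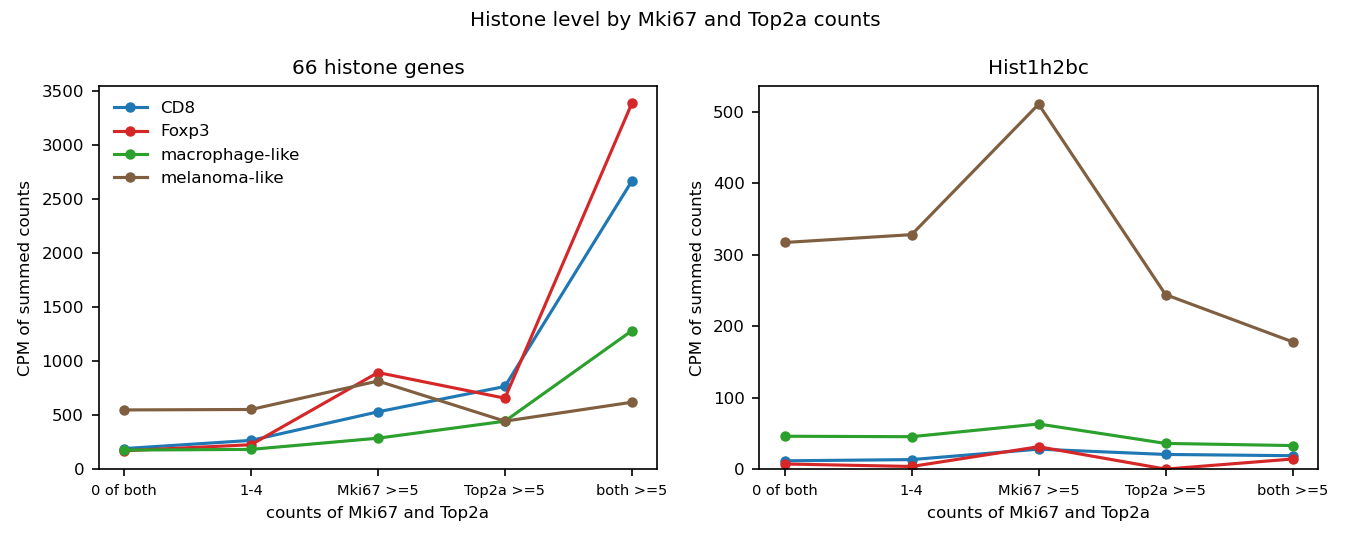
CPM of summed counts for the 66 histone genes (left) and for Hist1h2bc (right) in cells of 4 classes grouped by their counts of Mki67 and Top2a. The total was highest in CD8, Foxp3 and macrophage-like cells that held both genes, and Hist1h2bc was lowest in melanoma-like cells that held both.

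The single genes were compared as ratios of CPM, with sums below 30 counts raised to 30 and genes examined where both sums together held 100 counts. A gene with few counts in non-cycling cells can pass that minimum only through cycling cells, so the counts that follow describe the genes examined and do not stand for the 66. In CD8 cells 53 of 61 genes examined were at least 2-fold higher in cycling cells, against 6.02% of all 13401 genes examined, and 1 was at least 2-fold lower, against 12.3%. In Foxp3 cells 36 of 38 were higher (11.0% of all genes) and 0 lower (15.0%), a count from a fold limit and not from a test. In macrophage-like cells 41 of 49 were higher (6.91%) and 3 lower (6.40%). In melanoma-like cells 35 of 56 were higher (6.14%) and 3 lower (4.95%). The median log2 ratio over the genes examined was 2.37, 2.46, 2.24 and 1.86 in these classes in turn, against -0.23, -0.15, -0.03 and -0.02 over all genes. Of the genes examined, 9, 21, 9 and 2 lay under the floor in non-cycling cells, so their ratios are lower bounds. Of 33 genes examined in every class, 26 were higher in all 4, against 3.88% of 9433 genes. That count uses macrophage-like barcodes holding T cell markers. Without those barcodes only 9 members could be examined in macrophage-like cells and 4 were higher, so 26 does not stand there. With each cell thinned to 10000 counts, which leaves fewer genes examined, 24, 10, 10 and 3 members were higher in these classes in turn.

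**Figure D3:**
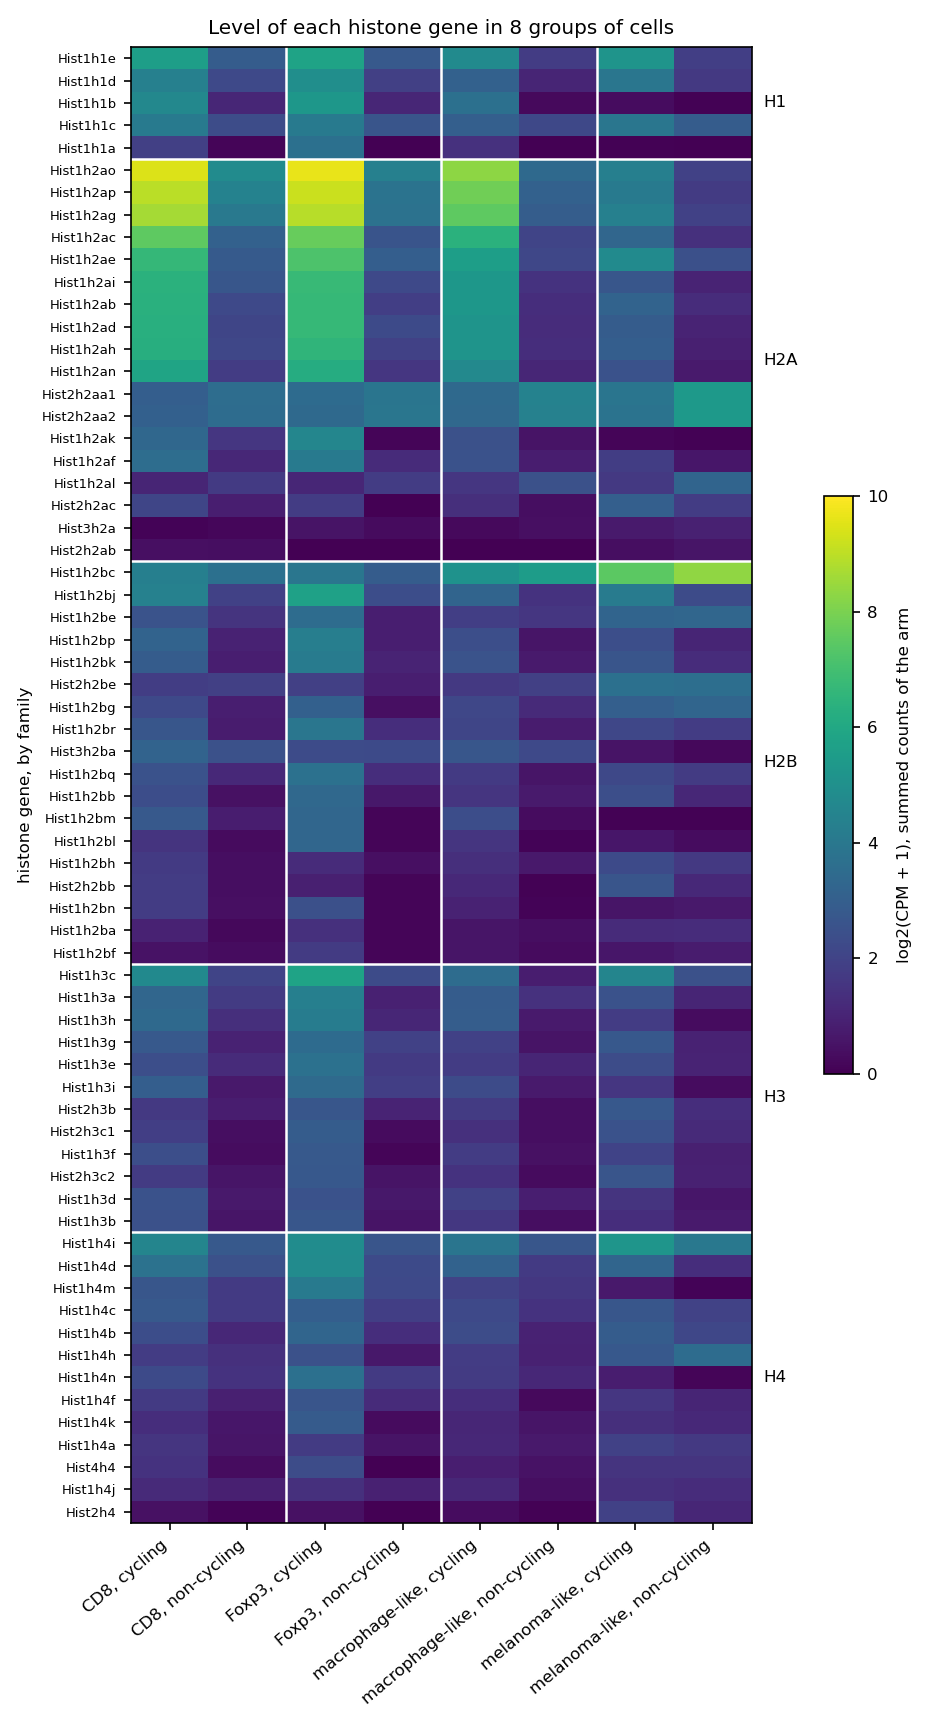
Level of each of the 66 genes as log2(CPM + 1) of summed counts in cycling and non-cycling cells of 4 classes, grouped by histone family. The Hist1 H2A genes led in cycling CD8, Foxp3 and macrophage-like cells, and Hist1h2bc led in both melanoma-like groups.

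**Figure D4:**
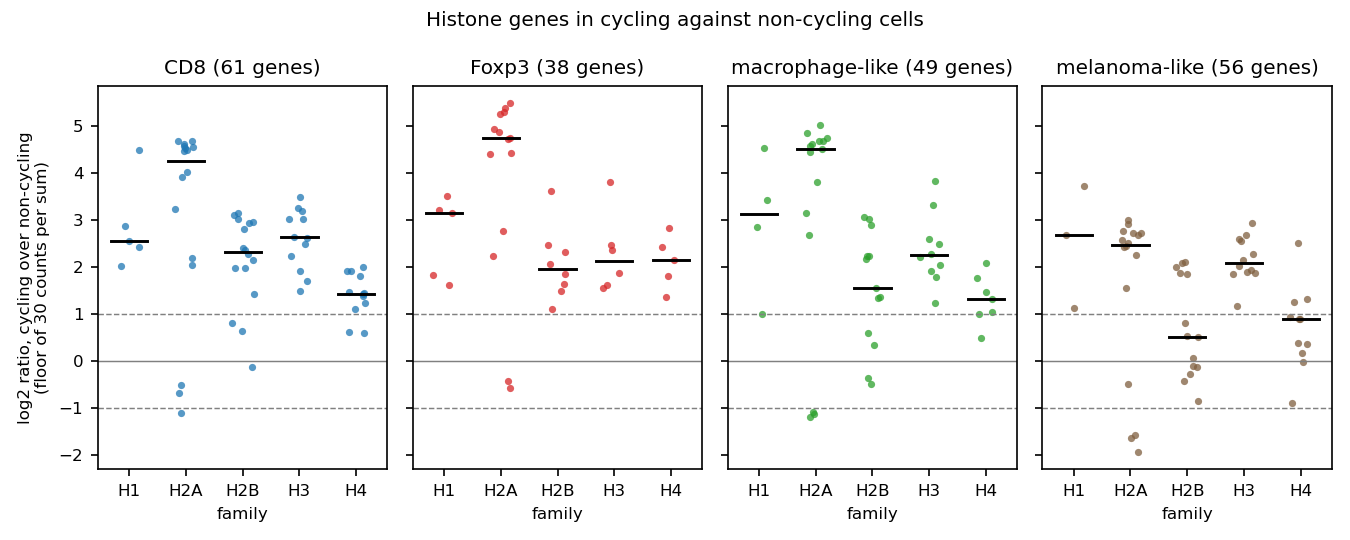
The log2 ratio of cycling to non-cycling cells for each gene examined, by family and class; each point is a gene, black lines are medians and dashed lines mark 2-fold. H2A points stand highest in CD8, Foxp3 and macrophage-like cells, apart from 2 or 3 H2A genes below 0 in each of these classes.

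H2A genes, whose products pair with H2B on the outside of the nucleosome core, carried most of the difference in T cells. As a family they were 18.7-fold higher in cycling CD8 cells (2307 against 123 CPM) and 26.7-fold in Foxp3 cells (2768 against 104). Hist1h2ao (ENSMUSG00000094248.1, chr13:21810465-21810944, plus strand) stood at 709 CPM in cycling and 27.5 in non-cycling CD8 cells, at 815 and 19.3 in Foxp3 cells, at 317 and 9.71 in macrophage-like cells and at 18.9 and 2.86 in melanoma-like cells. These are log2 ratios of 4.69, 5.40, 5.03 and 2.72. The gene was thus high in cycling T cells, and in melanoma-like cells it was low in both states. It had 5 or more counts in 82.6% of cycling and 4.47% of non-cycling CD8 cells, and in 14.02% and 2.94% of melanoma-like cells.

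Other Hist1 H2A genes followed the same order. Hist1h2ap stood at 500.3 and 20.4 CPM in CD8 cells, Hist1h2ag at 401 and 15.4, Hist1h2ac at 183 and 7.71, and Hist1h2ae at 99.7 and 6.11. Hist1h2ai (83.1 and 5.45 CPM), Hist1h2ab (81.2 and 3.63), Hist1h2ad (78.4 and 3.29) and Hist1h2ah (76.3 and 3.40) had smaller counts. The 6 highest median log2 ratios over the 4 classes all belonged to this family: Hist1h2ao 4.86, Hist1h2ap 4.74, Hist1h2ag 4.73, Hist1h2ac 4.63, Hist1h2ad 4.60 and Hist1h2ab 4.59. In cycling melanoma-like cells Hist1h2ae gave the most H2A counts, with 26.8 CPM against 4.46 in non-cycling cells.

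These H2A genes are near copies, so a read can fit several of them. Hist1h2ao and Hist1h2ap have identical coding sequences of 393 bases, and Hist1h2ag differs from them at 3 bases. Of the counts of Hist1h2ao, Hist1h2ap, Hist1h2ag and Hist1h2ac together, Hist1h2ao took 39.5% in cycling and 38.7% in non-cycling CD8 cells, 39.1% and 38.6% in Foxp3 cells, 39.4% and 35.6% in macrophage-like cells, and 29.9% and 29.5% in melanoma-like cells. The Hist1h2ao share moved by under 1 percentage point in CD8, Foxp3 and melanoma-like cells and by more in macrophage-like cells. Some other shares moved more. Hist1h2ag took 23.0% in cycling and 25.1% in non-cycling Foxp3 cells, and Hist1h2ac 14.1% and 16.8% in melanoma-like cells. In melanoma-like barcodes with fewer than 2 T cell markers Hist1h2ag led, at 12.9 CPM in cycling and 2.75 in non-cycling cells. Hist1h2ao had 6.83 and 2.67 CPM in those barcodes. No label or file says how reads that match several copies were divided, so the single values of these genes are uncertain and their sum is the firmer measure. The annotation also places another gene over 24 of the 66 members, among them Hist1h1e and Hist1h2be, which overlap each other, and no label says whether the counting used strand.

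The H1 genes encode the linker histones that bind DNA between nucleosomes. The family was 7.25-fold higher in cycling CD8 cells (111 against 15.3 CPM), 10.1-fold in Foxp3 cells, 7.54-fold in macrophage-like and 5.61-fold in melanoma-like cells (63.6 against 11.3 CPM). In macrophage-like barcodes with fewer than 2 T cell markers the family stood at 1.56 CPM in cycling and 2.14 in non-cycling cells. Hist1h1e, with 4 counts, gave most of the cycling value, and counts so few do not give a direction. Hist1h1e (ENSMUSG00000051627.3, chr13:23620629-23622558, minus strand) stood at 47.7 and 6.50 CPM in CD8 cells, 55.0 and 5.94 in Foxp3 cells, 26.3 and 2.45 in macrophage-like cells and 35.01 and 2.63 in melanoma-like cells. Its log2 ratios were 2.88, 3.21, 3.42 and 3.73, so, unlike Hist1h2ao, its ratio was not smaller in melanoma-like cells than in the other classes. Hist1h1c, of the same family, changed less, from 4.02 to 16.4 CPM in CD8 cells and from 6.50 to 14.3 in melanoma-like cells. Hist1h1b had 24.5 CPM in cycling CD8 cells and 38.2 in cycling Foxp3 cells but 0.262 in cycling melanoma-like cells, where 20 counts fell below the floor.

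H2B genes, the partners of H2A, were the family at a lower level in cycling than in non-cycling melanoma-like cells. The family was 3.31-fold higher in cycling CD8 cells (103 against 31.0 CPM) and 8.41-fold in Foxp3 cells (189 against 22.5). In macrophage-like cells it was 1.33-fold (82.0 against 61.6), but without barcodes holding T cell markers it was at 27.5 against 72.5 CPM, a ratio of 0.379. In melanoma-like cells it was at 255 CPM in cycling and 369.8 in non-cycling cells, a ratio of 0.690. Hist1h2bj, the H2B gene with the most counts in cycling T cells, stood at 19.99 and 2.83 CPM in CD8 cells, 51.2 and 4.14 in Foxp3 cells and 16.7 and 3.89 in melanoma-like cells.

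Hist1h2bc (ENSMUSG00000018102.5, chr13:23684199-23692908, plus strand) set the melanoma-like values. It had 178 CPM in cycling (95% Poisson interval 175 to 181) and 322 CPM in non-cycling melanoma-like cells (318 to 326), a log2 ratio of -0.86, short of 2-fold. It stood at 32.9 and 45.7 CPM in macrophage-like cells, and at 13.7 and 57.8 without barcodes holding T cell markers (log2 ratio -2.07). It stood at 18.7 and 11.9 in CD8 cells and 14.1 and 6.50 in Foxp3 cells. The gene was thus higher in melanoma-like than in T cells in either state. It made up 58.5% of the histone counts of non-cycling and 28.7% of those of cycling melanoma-like cells, against 0.702% in cycling CD8 cells. It was present at 5 or more counts in 81.4% of non-cycling and 69.5% of cycling melanoma-like cells, and in 1.79% and 9.10% of CD8 cells. Without Hist1h2bc, a choice made after its values were seen, the summed histone level of melanoma-like cells was 442 CPM in cycling and 228 in non-cycling cells, 1.94-fold, and that of CD8 cells was 13.7-fold higher.

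The neighbours of these genes gave a matched comparison within 1 stretch of DNA. In 11 places an H2A and an H2B gene start close to each other, 176 bases apart at the nearest, and are transcribed away from each other. Where both partners were examined, both were higher in cycling CD8 cells in 8 of 10 pairs and the H2A partner alone in 2. In melanoma-like cells both were higher in 3 of 9 pairs and the H2A partner alone in 6, and in no class was the H2B partner alone higher. The H2A ratio exceeded the H2B ratio in 9 of 10 pairs in CD8, 6 of 6 in Foxp3, 7 of 7 in macrophage-like and 9 of 9 in melanoma-like cells. The median difference was 1.87, 2.92, 2.51 and 2.19 on the log2 scale. These values include barcodes holding T cell markers. Without them only Hist1h2ac and Hist1h2bc were both examined in macrophage-like cells (3.07 and -2.07). In melanoma-like cells the gap narrowed for Hist1h2ao and Hist1h2bq (1.35 and 0.44) and for Hist1h2ag and Hist1h2bj (2.23 and 2.06). It widened for Hist1h2ae and Hist1h2bg (2.70 and -0.40) and for Hist2h2ac and Hist2h2be (1.74 and 0.05). The floor made part of the Foxp3 difference. There the non-cycling sums of Hist1h2bp, Hist1h2bq, Hist1h2br and Hist1h2bk lay under it, so these H2B ratios are lower bounds. Hist1h2bp, at 18.6 against 0.784 CPM, was given a log2 ratio of 2.47. The H2A partners Hist1h2an and Hist1h2ah lay under the floor there too, and so did Hist1h2bl and Hist1h2bn in CD8 cells.

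Hist1h2ac and Hist1h2bc, which start 251 bases apart, lay furthest apart of the pairs examined over all melanoma-like barcodes. Without barcodes holding T cell markers they had log2 ratios of 1.85 and -1.01. There Hist1h2ae and Hist1h2bg, at 2.70 and -0.40, lay further apart. From non-cycling to cycling melanoma-like cells Hist1h2ac went from 1.63 to 8.92 CPM (log2 ratio 2.45) while Hist1h2bc went from 322 to 178. In CD8 cells Hist1h2ac went from 7.71 to 183 CPM (4.57) and Hist1h2bc from 11.9 to 18.7 (0.65). Hist1h2ag and Hist1h2bj, 270 bases apart, moved more alike, with log2 ratios of 4.70 and 2.82 in CD8 cells and 2.78 and 2.103 in melanoma-like cells. The H2A partners are near copies of each other, so their ratios are not independent of each other.

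**Figure D5:**
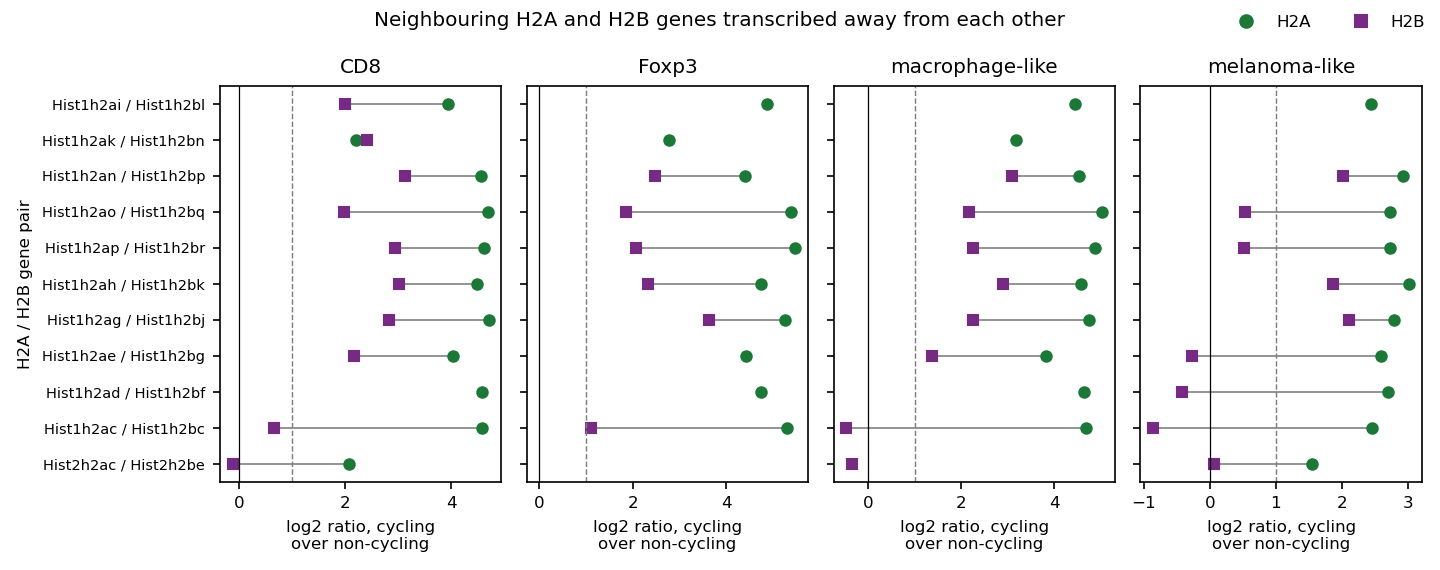
The log2 ratio of cycling to non-cycling cells for the 11 neighbouring H2A (circles) and H2B (squares) pairs in 4 classes, with genes not examined left out and a dashed line at 2-fold. The circle lies to the right of the square in all joined pairs except Hist1h2ak and Hist1h2bn in CD8 cells, and the pair of Hist1h2ac and Hist1h2bc is the widest in melanoma-like cells. Barcodes holding T cell markers are included.

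H3 and H4 genes encode the core pair on which the nucleosome is built. H3 genes were 6.42-fold higher in cycling CD8 cells (82.6 against 12.9 CPM), 9.63-fold in Foxp3, 6.12-fold in macrophage-like and 4.60-fold in melanoma-like cells (63.6 against 13.8). Without barcodes holding T cell markers the macrophage-like folds were 3.58 for H3 and 1.51 for H4 genes. All H3 genes examined in a class were at least 2-fold higher there. Hist1h3c led, at 26.1 and 3.19 CPM in CD8 cells, 54.9 and 3.92 in Foxp3 cells, 10.5 and 0.739 in macrophage-like cells and 22.4 and 4.62 in melanoma-like cells. Hist1h3a had 8.90 and 2.34 CPM in CD8 cells, 6.43 and 1.70 in macrophage-like cells and 4.76 and 1.06 in melanoma-like cells, and in Foxp3 cells it was at least 5.59-fold higher, the non-cycling sum lying under the floor of 30 counts. H4 genes differed less, with 2.92-fold in CD8 cells (65.96 against 22.6 CPM), 5.52-fold in Foxp3, 2.59-fold in macrophage-like and 1.80-fold in melanoma-like cells. Hist1h4i (ENSMUSG00000060639.5, chr13:22040636-22041362, minus strand) stood at 22.4 and 5.91 CPM in CD8 cells, 28.0 and 5.15 in Foxp3 cells, 13.7 and 5.44 in macrophage-like cells and 35.7 and 14.9 in melanoma-like cells, and was at least 2-fold higher in cycling cells of each class. The macrophage-like call was lost without barcodes holding T cell markers, where it had 7.17 and 6.13 CPM. Hist1h4j, among the lowest ratios, had 1.31 and 0.862 CPM in CD8 cells and 1.63 and 1.44 in melanoma-like cells.

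The genes at the low end were Hist2h2aa1, Hist2h2aa2, Hist1h2al and Hist2h2be. Hist2h2aa1 stood at 6.86 CPM in cycling and 10.9 in non-cycling CD8 cells, 10.4 and 13.9 in Foxp3 cells, 9.79 and 20.7 in macrophage-like cells and 13.6 and 40.5 in melanoma-like cells. In macrophage-like barcodes with fewer than 2 T cell markers it had 2.18 and 27.3 CPM. It was at least 2-fold lower in cycling macrophage-like (log2 ratio -1.08) and melanoma-like cells (-1.57), and neither in T cells (-0.67 and -0.42). Hist2h2aa2, with an identical coding sequence, gave -1.12 and -1.64 in the same pair of classes. Hist1h2al, annotated as a processed pseudogene, matches both at 337 of 339 bases; it had 1.04 and 2.23 CPM in CD8 cells and 2.18 and 8.27 in melanoma-like cells, a log2 ratio of -1.92. Its counts were 5.48% to 11.2% of those of the Hist2h2aa pair over the 8 groups, and with so few differing bases its value is uncertain. Hist2h2be had 11.9 and 11.4 CPM in melanoma-like cells and 2.51 and 2.74 in CD8 cells, close to level in both.

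Barcodes with markers of another class were then left out: 2 or more macrophage or melanoma markers in T cells, 2 or more T cell markers in the others. The T cell differences moved little and the macrophage-like difference fell to 2.19-fold. Melanoma markers were not used to leave out macrophage-like barcodes. Before this step 69.3% of cycling and 31.2% of non-cycling macrophage-like barcodes held 2 or more of them. CD8 cells had a 13.4-fold difference (627 cycling cells), with 52 of 59 members at least 2-fold higher beside 5.99% of all genes. Foxp3 cells had 19.9-fold (110 cells), with 28 of 31 beside 10.5%. Only 29 of 300 cycling macrophage-like barcodes held fewer than 2 T cell markers, and in them histone RNA was at 398 CPM (377 to 421) against 182 CPM (176 to 187) in 462 such non-cycling barcodes, which is that 2.19-fold difference. The other 271 cycling macrophage-like barcodes had 1355 CPM of histone RNA, with Trac, a T cell receptor gene, at 619.5 CPM, against 7.80 in the 29. These counts are few, since the 29 barcodes hold 1277 histone counts. In the 29 barcodes only 9 members could be examined and 4 were at least 2-fold higher: Hist1h2ao (101 against 7.22 CPM), Hist1h2ap (59.9 against 5.23), Hist1h2ag (59.6 against 4.73) and Hist1h2ac (20.6 against 2.45), beside 10.8% of 10175 genes. Hist1h2bc, Hist2h2aa1 and Hist2h2aa2 were at least 2-fold lower, beside 5.49%. Hist1h1e there was at 1.25 CPM, against 28.4 in the other 271. The part of T cell RNA in the remaining barcodes was not tested.

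In melanoma-like cells the same step touched the H2A genes. Cycling barcodes with 2 or more T cell markers (38) had 105 CPM of Hist1h2ao and 283 others had 6.83, against 2.67 in 497 non-cycling barcodes without such markers, a log2 ratio of 1.35. Over the 283 barcodes 35 of 55 members examined were still at least 2-fold higher, beside 6.00% of all genes. Hist1h1e was at 36.6 CPM against 2.73, Hist1h3c at 23.2 against 4.54 and Hist1h2ae at 26.7 against 4.11. Hist1h2bc was at 160.4 against 324 CPM, a log2 ratio of -1.01, which passes 2-fold, as did Hist1h2al, Hist1h4h, Hist2h2aa1 and Hist2h2aa2, beside 5.54% of all genes.

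The genes were also grouped by their annotated ends. In melanoma-like cells 7 of 17 examined genes with AATAAA after the stop codon were at least 2-fold higher in cycling cells with a median log2 ratio of 0.53, and the sum of the 18 genes was 292 CPM in cycling and 374 in non-cycling cells. Hist1h2bc gave most of both sums, and the other 17 summed to 114 in cycling and 51.9 in non-cycling cells, with 7 of 16 higher and a median of 0.67. Of genes with bases after the stop codon and no AATAAA, 23 of 31 were higher with a median of 1.95, and their sum was 300.9 against 161 CPM. In CD8 cells the medians were 2.02 and 2.61, with 12 of 16 and 31 of 34 higher. In Foxp3 cells they were 2.07 and 2.44, with 9 of 9 and 21 of 23 higher. In macrophage-like cells they were 1.76 and 2.16, with 8 of 12 and 27 of 30 higher. Of all genes examined, 6.14% were higher in melanoma-like, 6.02% in CD8, 11.0% in Foxp3 and 6.91% in macrophage-like cells. All of these values include barcodes holding T cell markers. Hist1h2bc and Hist2h2be are among the genes with AATAAA, and so is Hist1h2ac, which was higher in all 4 classes. The sequences describe annotated transcripts, not the ends of the RNA in these cells.

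Within cycling cells the level of histone RNA was much the same at each stage in CD8 cells and not in melanoma-like cells. Cells were split by 6 S phase genes and 6 genes of mitosis, a stage being met when 2 of its genes had 5 counts. In CD8 cells the sum was 2767 CPM (2741 to 2794) in 222 cells with the S phase gate alone, 2667 (2648 to 2685) with both, 2592 (2568 to 2615) in 257 with the mitosis gate alone and 2665 with neither. In Foxp3 cells it was 3066, 3723, 3030.3 and 4163, the last from 13 cells. In melanoma-like cells it was 454 in 41 cells with the S phase gate alone and 748 in 53 with the mitosis gate alone, and without barcodes holding T cell markers 342 and 773 (36 and 48 cells). In macrophage-like cells it was 1174, 1541, 1115 and 711, and without barcodes holding T cell markers 209, 581, 331 and 103, from 6, 9, 12 and 2 cells. A gate of 1 gene instead of 2 turned the small difference between S phase and mitosis cells around, to a log2 ratio of -0.16 in CD8 and -0.40 in Foxp3 cells.

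Single genes were compared between the stages. Between cells with the S phase gate alone and those with the mitosis gate alone, 0 of 43 genes examined in CD8 cells were at least 2-fold higher and 6 lower, against 4.78% and 4.04% of all genes, with no test made. In Foxp3 cells 1 of 22 was higher and 2 lower (7.61% and 8.97%), and in macrophage-like cells 1 of 26 and 4 (4.20% and 4.86%). In melanoma-like cells 4 of 21 were higher and 6 lower (5.94% and 5.86%). The 4 were Hist1h2ao (31.1 against 5.83 CPM), Hist1h2ap (24.7 against 6.62), Hist1h2ag (26.8 against 8.40) and Hist1h2ac (12.6 against 3.56). None of these calls stood without barcodes holding T cell markers, where Hist1h2ao was at 6.12 against 5.79 CPM, and 0 of 16 genes examined were higher and 6 lower (5.85% and 6.50% of all genes). Hist1h2bc was lower, at 114 in S phase against 363 CPM in mitosis cells and at 95.8 against 388 without those barcodes. The others lower both ways were Hist1h4i (17.8 against 50.9), Hist1h1c, Hist1h1d, Hist1h2bg and Hist1h2bj.

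The hashtags mark portions of the pool, and no label says which genotype or animal each one is. In CD8 cells the cycling level ranged from 2399.6 to 3674 CPM over 6 hashtags and the non-cycling level from 186 to 265, so the ranges did not overlap, and the fold difference was 9.04 to 16.4 (median 13.4). In macrophage-like cells the 6 folds were 4.66 to 10.6. In melanoma-like cells the 4 folds were 0.951 to 1.73, with 543 to 819 CPM in cycling and 475 to 664 in non-cycling cells, which overlap. The Foxp3 difference could be read in A0301 only, at 13.3-fold. Over the hashtags in which it was examined, Hist1h2ao had log2 ratios of 4.18 to 4.90 in CD8 cells (6 hashtags) and 0.76 to 3.78 in melanoma-like cells (3). Hist1h2bc was below 0 in all 4 hashtags of melanoma-like cells, from -1.54 to -0.35, and Hist1h1e above 0 in all 4, from 2.93 to 3.81.

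Genes that handle histones were compared in the same way. Of 13 histone chaperone and acetylation genes, 10 were at least 2-fold higher in cycling CD8 cells, 9 in Foxp3, 11 in macrophage-like and 9 in melanoma-like cells, with 0 lower, beside 6.02%, 11.0%, 6.91% and 6.14% of all genes, and the median log2 ratio was 1.27, 1.49, 1.63 and 2.33. Nasp, a chaperone of H1 and H3, went from 151 to 302.7 CPM in CD8 cells and from 44.0 to 199 in melanoma-like cells. Rbbp7, a histone-binding subunit of several chromatin complexes, went from 95.7 to 231 CPM in CD8 cells, and stood at 207 and 294 CPM in non-cycling and cycling melanoma-like cells, short of 2-fold. Of the 15 histone mRNA processing and transcription genes, 2 of 15 were higher in CD8 and 5 of 14 in Foxp3 cells. In macrophage-like cells 1 of 14 was higher and in melanoma-like cells 3 of 14, and 1 was lower in Foxp3 cells. The macrophage-like share lies near that of all genes. Without barcodes holding T cell markers 5 of 14 were higher in macrophage-like cells and 1 lower, beside 10.8% and 5.49% of all genes. Slbp was higher in each class, going from 84.5 to 193 CPM in CD8, from 66.9 to 219.8 in Foxp3, from 46.5 to 107 in macrophage-like and from 29.2 to 85.1 in melanoma-like cells. Casp8ap2 (FLASH, a factor of histone mRNA processing) went from 120.4 to 163 CPM in CD8 cells and Cpsf2, a subunit of the cleavage machinery, from 61.1 to 88.9, both short of 2-fold.

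Of the 11 replacement histone genes, 4 were at least 2-fold higher in each class (10, 9, 10 and 9 examined), above the same shares of all genes. H2afx, the variant phosphorylated at DNA breaks, went from 31.3 to 202 CPM in CD8 and from 14.7 to 95.5 in melanoma-like cells. Cenpa, the H3 variant of centromeres, went from 135 to 502 and from 11.7 to 213, and H2afv from 118 to 274 and from 54.2 to 207. Neither H3.3 gene reached 2-fold in any class. H3f3a stood at 954 and 742 CPM in cycling and non-cycling CD8 cells and at 1791 and 1676 in melanoma-like cells. H3f3b stood at 1950.4 and 1680.4 and at 2285 and 1356. H2afz, the H2A variant of promoters, went from 280.4 to 823 CPM in CD8 cells and from 194 to 804 in melanoma-like cells. For the cell cycle itself, 24 of 25 S phase genes and 24 of 24 genes of G2 and mitosis were higher in CD8 cells and 25 and 24 in melanoma-like cells. The cycling gate itself uses Mki67 and Top2a, so these counts check the gate and are no finding.

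Other cells of the capture showed a further pattern. Neutrophil-like cells (137, of which 0.730% were cycling) had 519.7 CPM of histone RNA (484 to 557), of which Hist2h2aa1 gave 115, Hist2h2aa2 129 and Hist1h2bc 77.3, with Hist1h1e and all H4 genes at 0 counts. A count of 0 among the cells' 1552812 counts allows up to 1.93 CPM, for counting error only. An unnamed cluster of 272 cells led by Igfbp3, Col3a1 and Serping1, with a median of 7141 counts, had Hist1h2bc at 303.8 CPM, close to the melanoma-like level. Among macrophage-like cells, a cluster of 51 cells led by Ednrb and Lyve1, of which 3.92% were cycling, had Hist1h2bc at 187 CPM and Hist1h2ao at 7.87, against 37.2 and 126 in the other 1516.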

How the data were processed

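The values were gene counts per barcode in the authors' deposited table of 1 mRNA library, and hashtag counts in a second deposited table. Per the submitters' processing notes, cutadapt 2.10, Bowtie2 2.3.4.1 and 2.4.2, R 3.5.3 and the build GRCm38 were used. The counts behave as reads, with a median non-zero value of 7, and no label says whether molecular identifiers were collapsed. Kept barcodes had 500 or more genes and at most 25% mitochondrial counts. Cells were clustered without Hist genes (scanpy 1.11.5, 3000 variable genes, 40 components, Leiden resolution 1) and named from marker lists. No doublet caller was run. In an alternative without barcodes holding another class, T cells with 2 or more macrophage or melanoma markers were left out. Macrophage-like and melanoma-like barcodes were left out there for 2 or more T cell markers only. Counts were summed per class and state and given as CPM with exact Poisson 95% intervals, which cover counting error only. A gene was examined at 100 summed counts, with a floor of 30 counts per sum, and called at 2-fold. Named genes were the 10 with the highest summed CPM, the 6 highest and 6 lowest median ratios, the top gene of each family and class, those at the edge of the rule, and the leading genes of the other lists; Hist1h1b, Hist1h2be, Hist1h1d, Hist1h2bg, Hist1h2ak and other genes named beside a count or pair were chosen after their values were seen. The scripts were tested on simulated data. A cell was given 1 hashtag by a likelihood margin of 3, which called 6302 kept barcodes. These include 21 to 28 barcodes for each of A0307 to A0312, which lie outside the 6 hashtags of the labels. Of 12016 barcodes, 11808 also stood in the hashtag table. The genes and lists were chosen with earlier results of these data known. Python 3.11.15 was used.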

Additional observations from a re-analysis of the deposited data

Results flagged for a closer look

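In melanoma-like cells the hashtag A0306 stood apart from the other 3 in the log2 ratio of summed histone counts between cycling and non-cycling cells. It was 0.79 there, from 819 CPM in cycling and 475 CPM in non-cycling cells, while the other folds were 0.951 to 1.04. The gap to the nearest hashtag took more of the range than Dixon's limit for 4 values allows. Of 9 sets of hashtags tested this was 1 flag, and chance flags about 1 in 20 sets. Hist1h2ao, Hist1h2ap and Hist1h2ag were higher in the cycling melanoma-like cells of A0306 than in those of the other hashtags. These genes were lower in cycling melanoma-like cells once barcodes holding T cell markers were left out. The flag was not recomputed without such barcodes, so their part in it was not tested.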

How the results depend on the processing

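Over 11 alternatives the summed log2 ratio of cycling to non-cycling cells was 3.41 to 3.94 in CD8, 3.89 to 4.36 in Foxp3, 1.13 to 3.24 in macrophage-like and 0.01 to 0.95 in melanoma-like cells, with no change of sign. The counts of members at least 2-fold higher fell where fewer cells or counts were left. In macrophage-like cells they were 5 with classes from marker gates and 4 without barcodes holding another class. With cells thinned to 10000 counts they were 24 in CD8, 10 in Foxp3, 10 in macrophage-like and 3 in melanoma-like cells. With only cells of the middle depths of cycling cells, chosen after seeing the data, they were 26, 14 and 25 in CD8, Foxp3 and macrophage-like cells. With a stage gate of 1 gene the S phase to mitosis log2 ratio reversed to -0.16 in CD8 and -0.40 in Foxp3 cells. Without barcodes holding another class, added after seeing the data, that ratio was -1.18 in melanoma-like cells and reversed to -0.66 in macrophage-like cells (6 and 12 barcodes). The cause was not tested. Shares of cycling and non-cycling cells with a member moved with the gate. At 1 count they were 98.2% and 43.6% in CD8, 98.7% and 42.6% in Foxp3, 97.3% and 65.8% in macrophage-like and 99.1% and 96.1% in melanoma-like cells. At 10 counts they were 86.1% and 8.08%, 87.4% and 6.12%, 79.0% and 19.5%, and 89.1% and 82.7%. Thinned, at 1 count, they were 95.7% and 38.4% in CD8, 97.3% and 35.1% in Foxp3, 47.7% in non-cycling macrophage-like and 91.9% in cycling melanoma-like cells. Of single genes, Hist2h2be reversed in CD8 cells to 0.10 (gate of 10 counts), 0.00023 (marker gates) and 0.099 (mean of per-cell CPM), and in melanoma-like cells to -0.012 (gate of 10), -0.10 (10% mitochondrial counts) and -0.18 (middle depths). Hist1h2al reversed to 0.65 in macrophage-like cells by the floor alone, its cycling sum of 3 counts being raised to 30 while its CPM stayed lower (0.936 against 5.95), and Hist1h4j to -0.089 in melanoma-like cells without barcodes holding another class, and Hist1h2bc to 0.044 in thinned macrophage-like cells. No paired analysis was possible because the labels give no replicate numbers to pair and no p-value is given for sums over chosen genes; within hashtags cycling cells were above non-cycling ones in 6 of 6 for CD8, 6 of 6 for macrophage-like and 3 of 4 for melanoma-like cells.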
